A study of Mus musculus with 14 samples.

Results

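Clathrin-mediated endocytosis takes up membrane and its proteins from the cell surface, and in neurons it retrieves synaptic vesicle membrane after release. The data on 10 mouse genes of this machinery are described here: the clathrin heavy chain *Cltc* and light chains *Clta* and *Cltb*, the dynamins *Dnm1*, *Dnm2* and *Dnm3*, the clathrin assembly proteins *Picalm* and *Snap91*, and the amphiphysins *Amph* and *Bin1*. The genes were chosen by name, when the inclusion rates of a *Clta* and a *Cltc* exon in these RNA-seq libraries were already known, so their RNA-seq levels and inclusion rates are given as a description with no test of the group. All 10 were found among the 19215 genes of the RNA-seq tables. They held 28 of the 13189 cassette exon entries, which are internal exons that a transcript includes or skips. These entries stand for 24 distinct exons in 9 genes, since *Amph* had none, and 27 of the 28 had at least 10 junction reads in each library. The remaining entry, a 41-nt form of a *Clta* exon, had 8 and 25 junction reads, and no inclusion rate is given for it.

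The series holds 14 samples from mouse spinal cord. For motoneuron (MN) CLIP, hemizygous Chat:GFP-Nova mice of C57BL/6 background at the age of 3 months were used, in which a bacterial artificial chromosome with the *Chat* promoter drives GFP-tagged NOVA2 in cholinergic neurons. There were 2 such lines, 6 and 17, with 4 replicates each, every replicate being a pool of spinal cords, and RNA crosslinked to the tagged protein was isolated with antibodies against GFP. For whole spinal cord (WSC) CLIP, 4 single spinal cords of wild-type C57BL/6 mice of the same age were used with a serum against endogenous NOVA1 and NOVA2. RNA-seq was made from poly(A)-selected RNA of 1 male and 1 female WSC of 12-week-old Tg(SOD1)2Gur/J mice on a B6/SJL background, which carry human wild-type SOD1. MN and WSC CLIP thus differ in antibody, in tagged against endogenous NOVA and in pooled against single animals, and the effects of these cannot be told apart from that of the cell type. Besides, *Chat* marks all cholinergic neurons of the cord and not MNs alone.

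A clathrin coat is a lattice of triskelia, each built from heavy chains with light chains bound along their legs. Adaptors such as Picalm and AP180 (the product of *Snap91*) bind membrane lipid and cargo and recruit the lattice, the amphiphysins bind and bend the narrowing neck through their BAR domain and recruit dynamin, and dynamin, a GTPase, cuts the neck. *Dnm1* is the dynamin of neurons, *Dnm2* is made in most cells, and *Dnm3* is found mainly in brain and testis. The light chains of brain carry inserts that most other tissues lack, encoded by short cassette exons. NOVA1 and NOVA2 are neuronal splicing regulators that bind YCAY, where Y is C or T in the DNA sequence, and are known to promote an exon when bound in the intron after it and to repress it when bound before it.

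The cassette exons of this machinery ran from 12 to 156 nt. Shown are 9 that the results below turn on, namely the light chain inserts, the short *Cltc* and *Dnm2* exons and exons of *Picalm* and *Snap91*, each with 25 nt of intron on either side, read from the NCBIM37 (mm9) genome on the transcript strand. Capitals mark the exon.
Clta 54-nt exon, chr4:44043087-44043140 (plus strand): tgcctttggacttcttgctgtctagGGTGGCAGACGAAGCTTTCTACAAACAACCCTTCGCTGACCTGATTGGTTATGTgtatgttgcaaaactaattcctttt
Clta 36-nt exon, chr4:44044272-44044307 (plus strand): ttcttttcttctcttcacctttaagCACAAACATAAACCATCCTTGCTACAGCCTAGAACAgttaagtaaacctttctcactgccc
Cltb 54-nt exon, chr13:54698387-54698440 (minus strand): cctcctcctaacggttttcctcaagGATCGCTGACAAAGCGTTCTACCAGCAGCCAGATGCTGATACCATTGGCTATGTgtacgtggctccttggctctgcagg
Cltc 21-nt exon, chr11:86514563-86514583 (minus strand): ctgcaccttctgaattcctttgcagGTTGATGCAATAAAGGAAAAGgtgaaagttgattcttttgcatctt
Dnm2 30-nt exon, chr9:21291491-21291520 (plus strand): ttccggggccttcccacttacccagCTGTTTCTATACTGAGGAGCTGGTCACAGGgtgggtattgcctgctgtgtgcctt
Picalm 150-nt exon, chr7:97330729-97330878 (plus strand): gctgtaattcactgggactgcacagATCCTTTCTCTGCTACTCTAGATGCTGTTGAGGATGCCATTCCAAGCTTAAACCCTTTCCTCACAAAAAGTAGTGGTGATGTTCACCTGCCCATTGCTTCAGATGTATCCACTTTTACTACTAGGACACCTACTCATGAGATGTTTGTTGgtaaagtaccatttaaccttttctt
Picalm 24-nt exon, chr7:97342783-97342806 (plus strand): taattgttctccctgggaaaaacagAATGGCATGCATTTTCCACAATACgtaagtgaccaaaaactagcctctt
Snap91 108-nt exon, chr9:86688192-86688299 (minus strand): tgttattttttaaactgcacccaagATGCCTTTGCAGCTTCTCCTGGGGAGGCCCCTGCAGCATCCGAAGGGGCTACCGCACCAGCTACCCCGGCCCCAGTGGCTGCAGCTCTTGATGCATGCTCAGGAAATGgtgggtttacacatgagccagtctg
Snap91 15-nt exon, chr9:86693665-86693679 (minus strand): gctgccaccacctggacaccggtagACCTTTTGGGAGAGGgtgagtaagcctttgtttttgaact

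The 54-nt exons of *Clta* and *Cltb* have the same length and, set base against base, 37 of 54 bases in common (68.5%). All exons shown are coding, begin after ag and end before gt, and have a length that is a multiple of 3, so that including or skipping them keeps the reading frame. YCAY was searched on the transcript strand, with Y as C or T and overlapping matches counted. Within the 100 nt before the *Dnm2* 30-nt exon there were 7 YCAY, a number reached by 0.436% of 11002 cassette exons. Before and after the *Clta* 36-nt exon there were 4 each, reached by 9.93% and 8.03% of exons, whereas the *Cltc* 21-nt exon had none on either side. At least 1 YCAY was present before 79.8% and after 75.9% of all cassette exons, so a match near an exon is common.

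Levels of the 10 genes in WSC RNA-seq were high for most. The unit is RPKM, reads per kb of exon and 1000000 reads on genes, which allows genes to be compared with each other. *Dnm1*, the neuronal dynamin, stood highest with 258.5 RPKM in the male and 213.8 in the female library. *Cltc*, the heavy chain that forms the legs of the triskelion, followed with 195 and 199. *Bin1*, also called amphiphysin 2, had 176 and 171 RPKM, and the light chain *Clta* 134 and 137. These 4 genes were above 96.9% or more of the 11940 expressed genes, those averaging 1 RPKM or more. *Snap91*, the neuronal assembly protein, had 67.2 and 70.0 RPKM, and *Amph*, the neuronal amphiphysin, 63.3 and 57.6. The second light chain, *Cltb*, had 53.3 and 60.4, and *Picalm*, the widely expressed relative of *Snap91*, 51.5 and 58.2. *Dnm3* had 35.8 in the male and 35.9 in the female library, while *Dnm2*, with 21.4 and 20.1, was the lowest of the group and above 70.9% of expressed genes. Neighbours in this order did not overlap over the 2 libraries except among *Amph*, *Cltb* and *Picalm*.

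**Figure D1:**
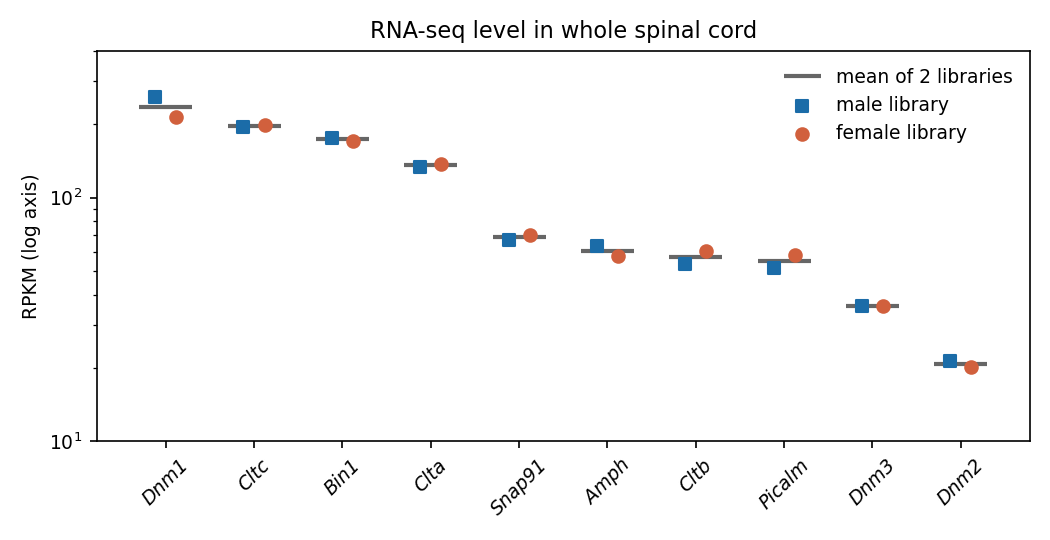
RNA-seq level of the 10 genes in WSC, in RPKM on a log axis, with a square for the male library, a circle for the female library and a bar for their mean. The means run from 236 for Dnm1 to 20.7 for Dnm2, and within each gene the 2 libraries lie within 1.21-fold of each other.

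As mean ± SD of the 2 libraries, *Dnm1* had 236 ± 31.6 RPKM, *Cltc* 197 ± 2.93, *Clta* 136 ± 2.45 and *Cltb* 56.9 ± 5.07 (n = 2 each). Within the dynamin family the levels thus ran from the highest to the lowest of the group, with 35.9 ± 0.0569 RPKM for *Dnm3* and 20.7 ± 0.861 for *Dnm2*. None of the 10 genes reached a 1.5-fold gap between the libraries, a size reached by 417 of 11940 expressed genes (3.49%), and the largest gap was the 1.21-fold of *Dnm1*. With 1 library of each sex, such a gap is one between 2 libraries. In the annotation, *Dnm3os* lies within *Dnm3* on the other strand, and use of the strand in RNA-seq counting was not given in the sources used here, so reads of the 2 genes cannot be told apart in the RNA-seq. As everywhere in bulk tissue, fewer cells of a type and less RNA per cell cannot be told apart either.

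Of the 27 covered entries, 11 were included at 20 to 80%, and they were found in both light chains, *Cltc*, *Picalm*, *Snap91* and *Bin1*. The inclusion rate sets the average read number of both inclusion junctions against the sum of this average and the skipping reads. The 11 entries stand for 10 exons, each of a length that is a multiple of 3. In the whole series 17.7% of covered entries lay in this range of inclusion, 61.9% above and 20.4% below it, and of the 1623 in this range 65.7% had such a length. A further 12 entries of the group were above 80%, 9 of them multiples of 3 against 42.3% of 5672 in the series, and 4 were under 20%, 2 of them multiples of 3 against 43.0% of 1864. Adding reads on the exon body to the inclusion reads, or summing rather than averaging the 2 junctions, left 5 and 7 entries between 20 and 80%.

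**Figure D2:**
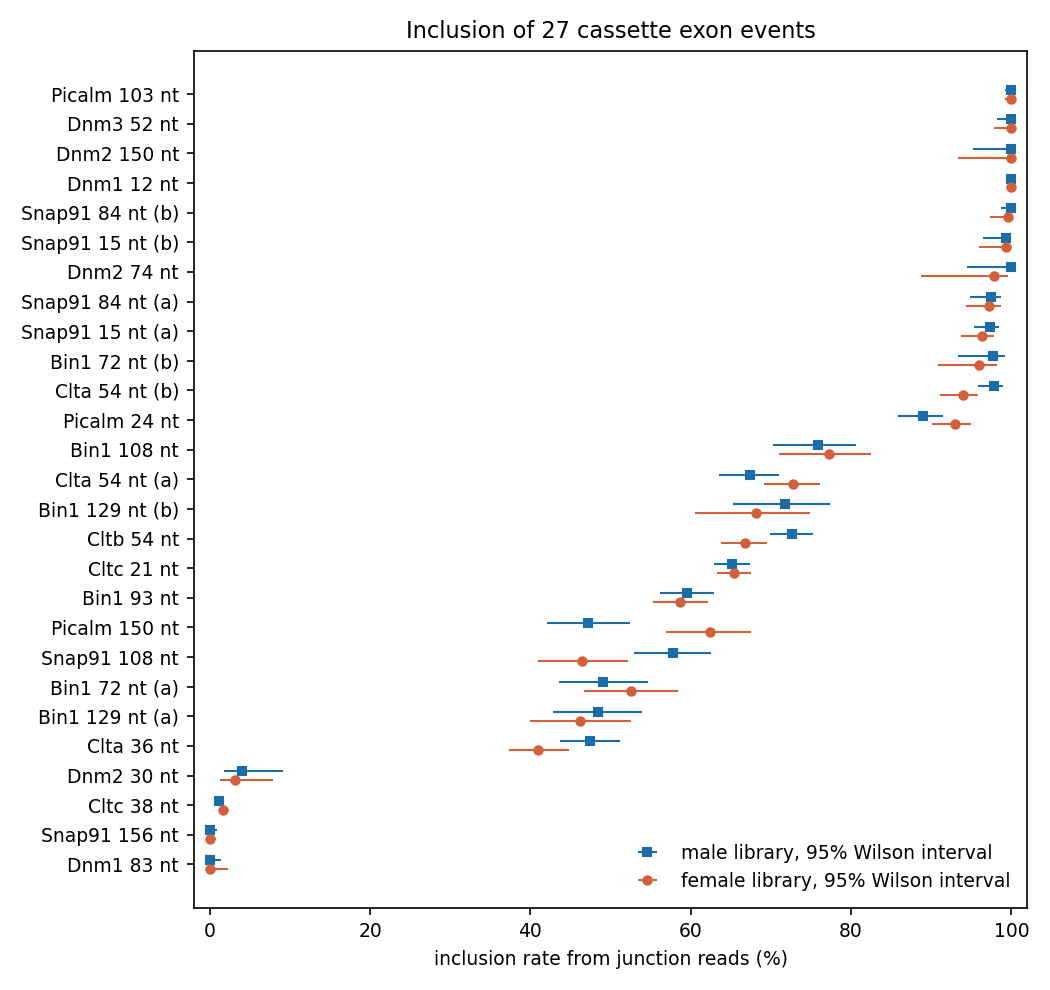
Inclusion rate in percent of the 27 covered entries, named by gene and exon length, with squares for the male and circles for the female WSC library and bars for 95% Wilson intervals, which cover counting error only. Entries of the same exon with another splice partner, or of the same length, are marked (a) and (b); 11 lie between 20 and 80%, 12 above and 4 below.

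The light chain inserts were read from junctions among 4 exons of *Clta*. The 54-nt exon had an inclusion rate of 67.4% in the male library, with a 95% Wilson interval of 63.6 to 71.0, and of 72.8% (69.1 to 76.2) in the female library, when skipping to the last exon was the alternative. Its 36-nt neighbour was included at 47.4% (43.7 to 51.2) and 41.0% (37.3 to 44.8). Where the 36-nt exon was present, the 54-nt exon was nearly always present too, with rates of 97.9% and 93.9%. Of the 852 reads of the male library on the 4 junctions that tell the combinations apart, 280 (32.9%) joined both inserts, 364 (42.7%) had the 54-nt exon alone, 200 (23.5%) had neither and 8 (0.939%) had the 36-nt exon alone. The female library gave 242 (29.3%), 393 (47.6%), 167 (20.2%) and 24 (2.91%) of 826. No transcript holds more than 1 of these 4 junctions, and the shares are of junction reads and not of whole transcripts. In the totals of junction reads given for short exons, a read across the whole exon can count at both of its junctions. How many reads did so was not counted.

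The 54-nt exon of *Cltb*, the insert of the second light chain, had rates of 72.7% (69.9 to 75.3) and 66.7% (63.8 to 69.5). For the 21-nt exon of *Cltc*, near the 3′ end of the heavy chain gene, the rates were 65.2% (62.9 to 67.4) and 65.5% (63.3 to 67.5), on 2844 and 3242 junction reads. A 38-nt exon of *Cltc* that is not annotated as coding was used at 1.12% and 1.71%. All 3 clathrin genes thus made transcripts with and without a short coding exon in this tissue.

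Dynamin exons were nearly all at an extreme. The 12-nt exon of *Dnm1* had no skipping read among 3208 and 2458 junction reads, and its non-coding 83-nt exon had no inclusion read beside 275 and 164 skipping reads. In *Dnm2*, the 150-nt exon was at 100% in both libraries, the 74-nt exon at 100% and 97.8%, and the 30-nt exon at 4.03% (1.73 to 9.09) and 3.20% (1.25 to 7.94). The 52-nt exon of *Dnm3*, whose length is no multiple of 3, was never skipped in 433 and 355 junction reads.

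Among the assembly proteins, the 150-nt exon of *Picalm* was at 47.2% (42.1 to 52.4) in the male and 62.4% (57.0 to 67.5) in the female library. Its 24-nt exon was at 89.0% and 92.9%, and its 103-nt exon at 100% in both. *Snap91* included its 108-nt exon at 57.8% (52.9 to 62.5) and 46.5% (40.9 to 52.2), while its 15-nt exon and both 84-nt exons were at 96.3% or more. A 156-nt exon of *Snap91* that is not annotated as coding had no inclusion read. In each of these 2 relatives, 1 exon was between 20 and 80% and the others were outside that range.

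In *Bin1*, all 4 cassette exons, which lie on chromosome 18 from 32574599 to 32591396, were included in part in at least 1 of their entries. The 93-nt exon was at 59.6% and 58.7%, and the 108-nt exon at 75.9% and 77.2%. For the 72-nt exon the rate was 49.1% and 52.6% when the junction before it came from the exon ending at 32584621. It was 97.7% and 95.9% when that junction came from the 129-nt exon. The latter rates rest on unequal junctions, with 4 and 3 reads on the first and 248 and 233 on the second. Beside these were 3 and 5 skipping reads, and the same second-junction reads enter both entries. The 129-nt exon had 48.4% and 46.2%, or 71.7% and 68.1%, depending on the exon it was joined to, but with 295 reads on its first and 3 or 4 on its second junction in the male library these means rest on unequal junctions.

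The 2 RNA-seq libraries were compared exon by exon with the two-sided Fisher's exact test on the authors' inclusion and skipping counts, adjusted over 9396 exons by Benjamini-Hochberg, and 400 (4.26%) passed 0.1. Of the 27 entries of the group, 3 did. The counts include reads on the exon body. As a share of these counts, *Picalm* included its 150-nt exon less in the male library by a difference of -8.04 percentage points (exact test, adjusted p = 0.00820), *Cltb* its 54-nt exon 4.20 points more (exact test, adjusted p = 0.0426) and *Clta* its 36-nt exon 6.90 points more (exact test, adjusted p = 0.0565). With junction reads only the *Clta* exon did not pass (exact test, adjusted p = 0.132), whereas the 108-nt exon of *Snap91*, then 9.76 points higher in the male library, did (exact test, adjusted p = 0.0406, against 0.142 with exon body reads). The test compares 2 libraries, not the sexes, and its p-values measure counting error alone. Both junctions of an exon enter the inclusion counts, so a read across a short exon can count at each. The p-values do not allow for this.

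CLIP tags were counted in each gene on the strand of its transcripts. A tag here is 1 read of RNA crosslinked to NOVA, with amplification copies removed by the authors. Levels are given as CPM, the tags of a gene per 1000000 tags of the library in the 4536 genes tested below, scaled by TMM. The libraries held 49985 to 679899 tags in genes in MN and 1785543 to 4970198 in WSC, so MN values of low genes rest on few tags. Of these tags 33.4 to 46.4% were exonic in MN against 60.9 to 66.2% in WSC. By read names, both replicates 1 of MN, both replicates 2, and the other 8 libraries came from 3 different sequencing instruments, and those 8, with 4 of MN and all of WSC, carry the same run number. Markers of cholinergic neurons were higher in MN, with log2 differences of 3.08 for *Chat* and 2.21 for *Slc5a7*, while *Mnx1* and *Isl1* had 3 and 36 WSC tags in all and were not tested. The summed level of the 5 MN markers was 922 to 2697 in MN and 341 to 458 in WSC. Nearly all of it came from *Slc5a7* and *Chat*, with 2217 and 705 tags in MN. *Isl1* had 14 tags in MN and *Mnx1* had 0, while *Slc18a3* had 0 tags in both groups. All 4 markers of inhibitory interneurons were lower in MN (summed level 101 to 549 against 2575 to 2853), as were all 3 tested of the 4 of astrocytes (931 to 1866 against 2215 to 2878). Of the 3 tested markers of neurons in general, *Snap25* was higher (0.61), and their summed level was 8490 to 12453 in MN and 5889 to 7392 in WSC. Neither of the 2 tested oligodendrocyte markers passed the threshold, and no marker of microglia or endothelium had enough tags. The part that this cell makeup has in the gene differences below was not tested.

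Gene levels were compared between MN and WSC with the edgeR quasi-likelihood test over 4536 genes at an adjusted p of 0.01. In the series, 1248 genes (27.5%) were higher and 1318 (29.1%) lower in MN. Of the 10 endocytosis genes, 9 had enough tags to be tested, of which 1 was higher, *Dnm3*, and 2 were lower, *Dnm1* and *Cltb*, in each direction a smaller share than in the series. The median log2 difference of these 9 was 0.07, beside -0.02 over all tested genes. Without the filter on low counts, which moved the median of the same genes by -0.21 and gave 1047 higher and 2656 lower genes, 16430 genes were tested and 16.2% were lower.

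**Figure D3:**
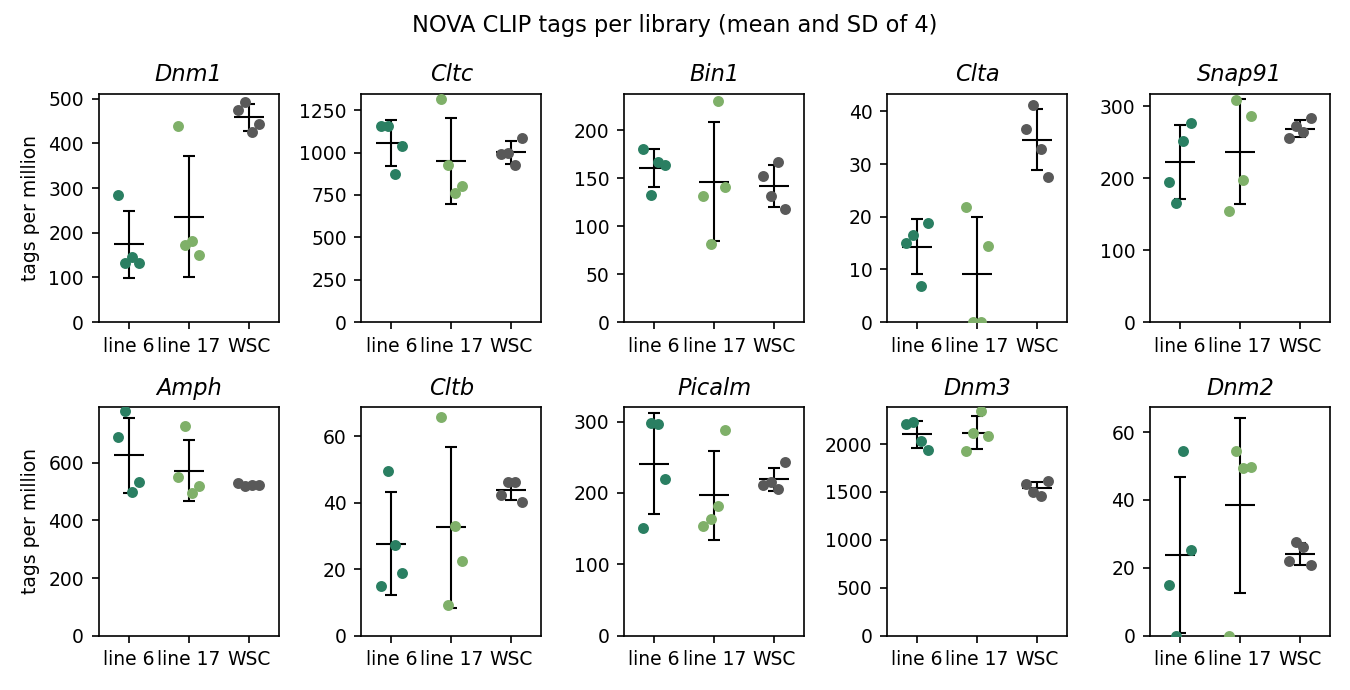
NOVA CLIP level in CPM of the 10 genes, with 1 point per library for MN line 6, MN line 17 and WSC and bars for mean and SD of 4 libraries; each panel has its own axis from 0. All Dnm3 points of MN lie above those of WSC, all Clta points of MN below, and in Dnm1 the replicates 1 of both lines lie above the other MN libraries.

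The neuronal dynamin *Dnm1* (mm9 chromosome 2, 32163991 to 32208849) had the largest difference of the 9 tested genes. Line 6 had 285, 132, 146 and 132 CPM in replicates 1 to 4, and line 17 had 439, 173, 182 and 151. WSC had 475, 492, 425 and 442. Within each line replicate 1 was the highest, and only that of line 17 reached into the WSC range. The level fell by 1.45 on the log2 scale (SE 0.143, edgeR, adjusted p = 2.55e-09), in the same direction for line 6 alone (-1.53) and line 17 alone (-1.36). In the 8 libraries of 1 run by their read names it was lower by -1.65 on the same scale. Counting exonic tags alone gave -1.05 and intronic tags alone -0.75, each scaled to the library's tags of that kind and each past the threshold (edgeR, adjusted p = 3.08e-05 and 0.00362).

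*Dnm3* (chromosome 1, 163912584 to 164408165) received more tags than any other gene of the group, 2946 in MN and 20567 in WSC. Line 6 had 2208, 2235, 2028 and 1936 CPM, line 17 had 1932, 2118, 2343 and 2081, and WSC had 1580, 1505, 1460 and 1613. Every MN library was above every WSC library. The level rose by 0.45 on the log2 scale (SE 0.0924, edgeR, adjusted p = 1.44e-04), with 0.44 for line 6 and 0.46 for line 17 against WSC, and 0.38 in the libraries of 1 run (edgeR, adjusted p = 0.00310). Without the filter on low counts the difference was 0.19 and did not pass (edgeR, adjusted p = 0.240). Exonic and intronic tags each gave a positive difference, 0.72 and 0.51.

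For *Dnm2* (chromosome 9, 21229352 to 21312203), the dynamin of most tissues, MN libraries held 0 to 31 tags, 61 in all, and WSC libraries 35 to 133. Replicate 2 of line 6 and replicate 1 of line 17 had none. By its WSC levels of 21.0 to 27.7 CPM alone *Dnm2* would not have passed the filter on low counts, and it was tested because of its MN libraries. The difference of 0.72 (SE 0.277) did not pass (edgeR, adjusted p = 0.0238), and it did without replicate 2 of line 6 (0.81, edgeR, adjusted p = 0.00911) and in the libraries of 1 run (0.89, edgeR, adjusted p = 0.00305). The 3 dynamins therefore had differences of both signs.

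Both light chains had few tags in MN. *Clta* (chromosome 4, 44017324 to 44045718) had 1, 1, 2 and 3 tags in line 6 and 1, 0, 0 and 9 in line 17, 17 in all, against 97, 198, 146 and 46 in WSC. As levels these are 0 to 22.0 CPM in MN and 27.6 to 41.3 in WSC, and the groups did not overlap. *Clta* did not pass the filter on low counts, and in the fit without it the level fell by 1.76 on the log2 scale (SE 0.335, edgeR, adjusted p = 1.61e-06). *Cltb* (chromosome 13, 54693762 to 54712705) had 1, 3, 8 and 3 tags in line 6, 3, 1, 2 and 14 in line 17 and 112, 222, 205 and 67 in WSC. Its MN levels, 9.09 to 65.9 CPM with a median of 24.8, overlapped those of WSC, 40.1 to 46.3. The level fell by 0.83 on the log2 scale (SE 0.246, edgeR, adjusted p = 0.00456), a call lost without replicate 4 of line 6 (-0.75, edgeR, adjusted p = 0.0154) and in either line alone (edgeR, adjusted p = 0.0665 and 0.0193). With any 1 of 6 of the 12 libraries left out, *Cltb* did not pass the filter on low counts. Of its tags 94.3% were exonic in MN and 96.9% in WSC, and there were too few for a test of exonic tags alone. The part of the lower exonic share of whole MN libraries in this difference was thus not tested.

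The heavy chain *Cltc* (chromosome 11, 86507853 to 86571067) had 759 to 1318 CPM in MN, with a median of 982, and 994, 998, 926 and 1085 in WSC. The groups overlapped and the difference was -0.06 (SE 0.110, edgeR, adjusted p = 0.658). Of its tags 88.1% were exonic in MN and 94.9% in WSC, well above the libraries' own shares, and when exonic tags alone were scaled to exonic totals the difference became 0.61 (SE 0.125, edgeR, adjusted p = 2.18e-04). Intronic tags alone gave 0.24 (edgeR, adjusted p = 0.277), so the sign over all tags was not that of either class.

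The other 4 genes did not pass the threshold over all tags. *Picalm* (chromosome 7, 97278723 to 97357610) had 150 to 298 CPM in MN and 205 to 243 in WSC, with a difference of 0.20 (SE 0.126, edgeR, adjusted p = 0.161). *Snap91* (chromosome 9, 86659981 to 86775489) had 154 to 309 against 256 to 283, a difference of -0.07 (SE 0.109, edgeR, adjusted p = 0.561). For *Amph* (chromosome 13, 19040240 to 19242782), MN had 495 to 778 and WSC 521 to 530, a difference of 0.13 (SE 0.102, edgeR, adjusted p = 0.272). By class of tag, *Amph* was higher over exonic tags (0.36, edgeR, adjusted p = 0.00698) and lower over intronic tags (-0.39, edgeR, adjusted p = 0.00266), and *Picalm* was higher over intronic tags (0.49, edgeR, adjusted p = 0.00779). *Bin1* (chromosome 18, 32536871 to 32595390) had 81.8 to 231 CPM in MN and 118 to 167 in WSC, a difference of 0.07 (SE 0.147, edgeR, adjusted p = 0.679), and over intronic tags, to which nearly all of its tags belong, it was lower (-0.79, edgeR, adjusted p = 3.71e-05).

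**Figure D4:**
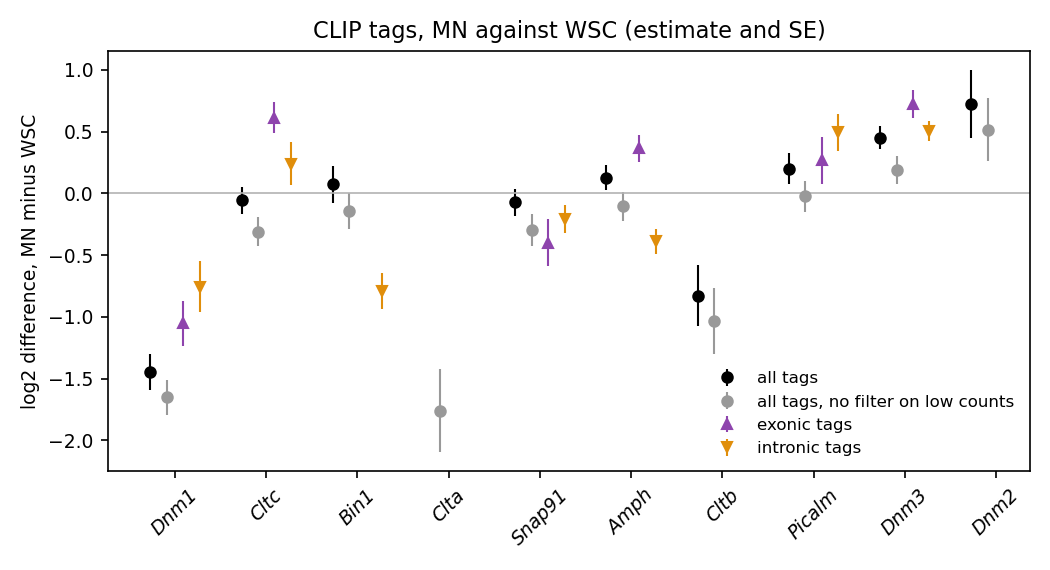
Difference MN minus WSC in CLIP tags on the log2 scale with its SE, for all tags with and without the filter on low counts and for exonic and intronic tags alone, the last 2 scaled to the library's tags of that kind. Dnm1 is below 0 and Dnm3 above 0 in every series of points, while Cltc, Amph, Bin1 and Picalm cross 0; a missing point means too few tags.

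Between the 2 transgenic lines, none of 4536 genes (0%) passed 0.01 in the edgeR test. There were 215 at an unadjusted p under 0.05, and DESeq2 called 1. The line differences of the 9 tested endocytosis genes ran from -0.41 for *Dnm2* to 0.23 for *Bin1* on the log2 scale.

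The genes differed widely in how many tags their exons drew and where these lay. Per kb of exon, which allows genes to be compared, *Cltc* had 106 exonic CPM in WSC, *Amph* 77.0, *Dnm1* 75.6, *Dnm3* 73.2 and *Picalm* 40.1. *Snap91* had 24.2, *Clta* 17.3, *Cltb* 8.55, *Bin1* 4.28 and *Dnm2* 1.24. *Bin1*, the third by RNA level, was thus next to last by exonic NOVA tags. In the exon after the last coding base, the 3′ UTR, lay 88.0% of the WSC tags of *Cltb*, 70.4% of *Cltc*, 67.2% of *Dnm3*, 61.8% of *Clta*, 59.9% of *Dnm1* and 57.4% of *Picalm*. The share was 41.4% in *Amph* and 32.2% in *Snap91*, but 1.42% in *Bin1* and 1.17% in *Dnm2*. In *Bin1* and *Dnm2* 92.4% and 73.1% of WSC tags were intronic.

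In the pooled MN libraries the intronic share was higher than in WSC for each of the 10 genes but *Cltb* and *Bin1*. It was 75.3% against 46.3% in *Snap91*, 65.3% against 51.2% in *Amph*, 55.2% against 25.3% in *Picalm*, 47.0% against 24.9% in *Dnm3*, 30.2% against 10.4% in *Dnm1* and 11.9% against 5.10% in *Cltc*. For *Dnm3* the ranges over libraries did not overlap, 38.7 to 50.2% in MN and 22.9 to 25.9% in WSC, and the same held for *Snap91*, with 63.6 to 100% against 43.4 to 49.1%, *Amph*, with 55.8 to 76.3% against 45.7 to 53.0%, and *Picalm*, with 33.3 to 100% against 22.4 to 28.4%. In the other 6 genes the ranges overlapped. The exonic share of whole libraries was lower in MN as well and did not overlap either, with 33.4 to 46.4% against 60.9 to 66.2% in WSC. Its part in these shifts was not tested, and how many of all genes had ranges without overlap was not counted.

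**Figure D5:**
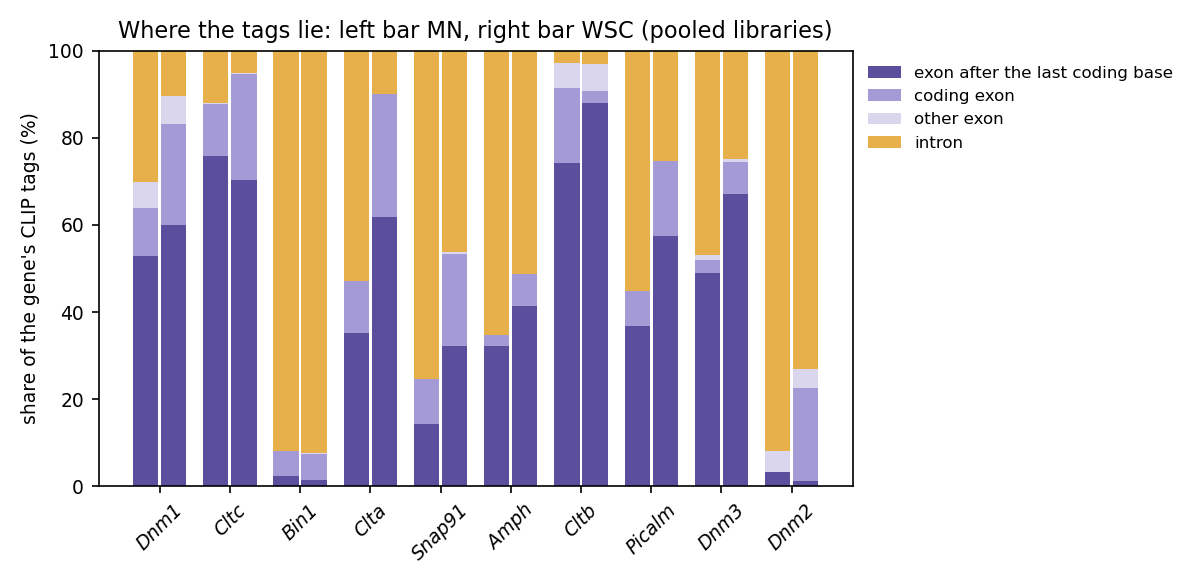
Share of each gene's CLIP tags, in percent, that lie in the exon after the last coding base, in coding exons, in other exons and in introns, with the pooled MN libraries on the left and the pooled WSC libraries on the right of each pair. Tags of Bin1 and Dnm2 are mostly intronic in both, those of Cltb and Cltc mostly exonic, and intron shares are higher in MN for Snap91, Amph, Picalm, Dnm3, Dnm1, Dnm2, Clta and Cltc.

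Within the 3′ UTR, tags gathered in a few bins of 100 nt. In *Dnm1* the bin from 32164200 held 1662 of 6238 WSC tags (26.6%) and 31 of 235 MN tags (13.2%, 95% Wilson interval 9.45 to 18.1). In *Cltb* the bin from 54694900 held 217 of 606 WSC tags (35.8%) and 9 of 35 MN tags (25.7%, 14.2 to 42.1). In *Cltc* the densest bin was not the same in MN and WSC, with 14.2% of WSC and 9.08% of MN tags (7.63 to 10.8) in the bin from 86508400, and 13.1% of WSC and 21.3% of MN tags (19.1 to 23.6) in that from 86508800. *Dnm3* had 12.3% and 12.1% (10.96 to 13.3) in its densest bin from 163917800, and *Picalm* 15.8% and 14.2% in that from 97356700. For *Snap91*, the bin from 86660100 held 20.5% of WSC and 4.30% of MN tags (2.66 to 6.87), and for *Amph* that from 19242600 held 17.0% and 7.14% (5.54 to 9.16). These intervals cover counting error of pooled libraries only, and the bins were picked by their WSC tags.

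Some stretches outside the 3′ UTR drew many tags, and the sequences of 5 of them are shown for what NOVA-bound RNA of these genes looks like. Each is the 100-nt bin with the most WSC tags among the coding exon and intron bins of its gene, on the transcript strand of mm9, with YCAY in capitals.
Amph intron, chr13:19217100-19217199 (plus strand): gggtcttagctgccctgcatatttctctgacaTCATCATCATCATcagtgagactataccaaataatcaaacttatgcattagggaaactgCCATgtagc
Dnm1 coding exon, chr2:32193300-32193399 (minus strand): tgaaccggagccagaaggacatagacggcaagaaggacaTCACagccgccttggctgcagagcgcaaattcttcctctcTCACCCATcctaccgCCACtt
Dnm2 intron, chr9:21296100-21296199 (plus strand): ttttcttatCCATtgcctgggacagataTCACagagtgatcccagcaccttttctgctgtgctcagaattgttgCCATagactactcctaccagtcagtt
Picalm coding exon, chr7:97326000-97326099 (plus strand): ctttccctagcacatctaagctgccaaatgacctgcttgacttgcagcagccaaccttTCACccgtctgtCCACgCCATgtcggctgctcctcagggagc
Snap91 coding exon, chr9:86701300-86701399 (minus strand): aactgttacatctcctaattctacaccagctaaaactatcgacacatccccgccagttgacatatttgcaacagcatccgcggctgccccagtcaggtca

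The *Amph* intron bin held 293 of 7100 WSC tags (4.13%) and 18 of 784 MN tags (2.30%), and contains a run of overlapping TCAT among 5 YCAY, as many as 3.56% of the bins of that gene hold. In *Dnm1* the coding bin held 346 of 6238 WSC tags (5.55%) and 7 of 235 MN tags (2.98%). It has 4 YCAY, a number reached by 12.2% of the bins of that gene. The *Dnm2* intron bin held 24 of 342 WSC tags (7.02%) and 8 of 61 MN tags (13.1%), with 3 YCAY, and the *Picalm* coding bin 133 of 2910 (4.57%) and 7 of 366 (1.91%), also with 3. The *Snap91* coding bin was the most used of the 5, with 369 of 3625 WSC tags (10.2%) and 12 of 372 MN tags (3.23%), and it holds no YCAY. Since the bins were picked for their WSC tags, their WSC shares tend to be high by choice.

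NOVA tags around the cassette exons were compared as shares of their gene's tags. The share within 400 nt of an exon was tested with edgeR against the rest of the gene, each library with a term of its own, over 1626 exons with at least 20 near and 20 other tags, at an adjusted p of 0.1. In the series 154 (9.47%) were higher and 155 (9.53%) lower in MN. Of the 24 exons of the group, 14 were tested, 2 of them forms of the same *Clta* exon, and 1 was higher and 1 lower. The remaining 10 had too few tags, such as 3 MN and 5 WSC tags near the 54-nt exon of *Clta*. Near the 30-nt exon of *Dnm2*, with its 7 YCAY before it, lay 4 MN and 2 WSC tags.

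Higher was the 52-nt exon of *Dnm3*, with 23 of 2946 MN tags (0.781%) against 63 of 20567 WSC tags (0.306%). Line 6 had 2, 3, 5 and 0 near tags, line 17 had 1, 5, 1 and 6, and WSC had 15, 20, 21 and 7. Of these near tags, 22 of 23 in MN and 42 of 63 in WSC were intronic, beside intronic shares of 47.0% and 24.9% over the whole gene. The log2 difference of shares was 1.36 (SE 0.412, edgeR, adjusted p = 0.0107). It did not pass with a window of 200 nt (0.78, edgeR, adjusted p = 0.421), among intronic tags alone (0.97, edgeR, adjusted p = 0.168) or in the libraries of 1 run (0.75, edgeR, adjusted p = 0.406). This exon was not skipped in any WSC read, so no change of its inclusion can be set beside the tags. Lower was the 15-nt exon of *Snap91*, with 5 of 372 MN tags (1.34%) against 118 of 3625 WSC tags (3.26%), a log2 difference of -1.53 (SE 0.637, edgeR, adjusted p = 0.0917). Only 3 of the 118 WSC tags there were intronic, and 106 lay in the 100 nt shown next, within the following coding exon. That call was lost when any 1 MN library except replicate 4 of line 6, or replicate 4 of WSC, was left out (edgeR, adjusted p = 0.102 to 0.344), and in the libraries of 1 run (-1.28, edgeR, adjusted p = 0.255). The densest 100 nt of tags in both windows were these, with YCAY in capitals.
Dnm3, after the 52-nt exon, chr1:164204368-164204467 (minus strand): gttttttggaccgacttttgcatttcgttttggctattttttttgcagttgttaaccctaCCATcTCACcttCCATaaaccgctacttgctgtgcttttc
Snap91, after the 15-nt exon, chr9:86693399-86693498 (minus strand): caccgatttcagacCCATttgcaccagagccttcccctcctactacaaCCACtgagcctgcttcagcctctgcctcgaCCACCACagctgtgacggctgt

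The stretch of *Dnm3* begins 152 nt after the exon, in the intron, and has 3 YCAY with 33 WSC and 13 MN tags. That of *Snap91* begins 167 nt after the exon and has 4 YCAY. Near the *Picalm* 150-nt exon lay 15 of 366 MN tags (4.10%) and 200 of 2910 WSC tags (6.87%), a difference of -0.74 (SE 0.382, edgeR, adjusted p = 0.183), which passed with a window of 200 nt (-0.999, edgeR, adjusted p = 0.0712). For the *Cltc* 21-nt exon there were 6 of 1277 and 16 of 13335 tags (1.82, SE 0.832, edgeR, adjusted p = 0.123), which passed in the libraries of 1 run (2.25, edgeR, adjusted p = 0.0899) and turned without replicate 4 of line 17 (-0.57). The *Snap91* 108-nt exon had 1 of 372 and 31 of 3625 tags near it (-2.65, SE 1.57, edgeR, adjusted p = 0.251). With intronic tags alone the difference passed (-5.04, edgeR, adjusted p = 0.0766), but on 0 MN and 28 WSC tags near the exon. There were for the *Clta* 36-nt exon 2 of 17 and 21 of 487 (0.31, SE 1.04, edgeR, adjusted p = 0.861), and for the *Cltb* 54-nt exon 3 of 35 and 21 of 606 (1.32, SE 1.13, edgeR, adjusted p = 0.447). With so few tags, differences near the light chain exons were not detectable at this depth.

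The 129-nt exon of *Bin1* was the one with the most NOVA tags around it. Within 400 nt of it lay 40 of the 212 MN tags of the gene (18.9%, 95% Wilson interval 14.2 to 24.7) and 436 of the 1971 WSC tags (22.1%), of which 380 were intronic. WSC libraries held 19.1 to 23.4% there, and 7 of 8 MN libraries had at least 1 tag. The log2 difference of shares was -0.27 (SE 0.287, edgeR, adjusted p = 0.550), and -0.85 with a window of 200 nt (edgeR, adjusted p = 0.0652). For the 108-nt and 72-nt exons of the same gene it was -0.86 (SE 0.620) and -1.26 (SE 0.869), on 5 and 2 MN tags (edgeR, adjusted p = 0.363 and 0.336).

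Among 38 other genes of the pathway, a list drawn up with earlier results of these data known, 22 had enough CLIP tags to be tested, of which 5 were higher and 9 lower in MN, with a median log2 difference of -0.10, beside 27.5% higher, 29.1% lower and a median of -0.02 over all 4536 genes. Of the AP-2 adaptor, the cargo adaptor that links clathrin to the membrane, 3 of 5 subunits were tested and 2 were lower. Initiation and cargo adaptors had 4 higher and 3 lower of 9 tested, BAR proteins 1 lower of 3, uncoating factors 1 lower of 4, and kinases 1 higher and 2 lower of 3. The lowest values among those that passed were those of *Ap2a1*, an AP-2 subunit (-1.94, edgeR, adjusted p = 1.06e-05), *Epn1*, an epsin (-1.34, edgeR, adjusted p = 5.44e-05), and *Pip5k1c*, which makes the membrane lipid that adaptors bind (-1.26, edgeR, adjusted p = 7.95e-06). Highest were the epsin *Epn2* (1.05, edgeR, adjusted p = 5.02e-04), the kinase *Bmp2k* (0.79, edgeR, adjusted p = 0.00159) and the intersectin scaffold *Itsn2* (0.65, edgeR, adjusted p = 1.84e-05). By their WSC levels alone, *Epn2* (21.0 to 28.4 CPM) and *Bmp2k* (34.8 to 46.1) would not have passed the filter on low counts. The same held for *Ap2a1* and *Epn1* by their MN levels (0 to 50.3 and 0 to 43.9). Each was thus tested because of the group in which it was higher. The *Bmp2k* call was lost without replicate 3 of line 6 (0.74, edgeR, adjusted p = 0.0153) or replicate 4 of line 17 (0.51, edgeR, adjusted p = 0.182). The *Epn2* call was lost for line 6 alone (1.06, edgeR, adjusted p = 0.0118) and with intronic tags alone (0.31, edgeR, adjusted p = 0.305). By class of tag, *Ap2b1*, *Aak1*, *Synj1*, *Pacsin1* and *Sgip1* passed over all tags but with neither exonic nor intronic tags alone. *Ap2b1* had -0.76 over all tags, -0.18 exonic and -0.14 intronic. *Eps15l1* passed in both classes, and *Itsn1* and *Itsn2* with exonic tags. *Fcho2* did not pass with intronic tags, its only class tested. *Ap2a1* and *Epn1* had too few tags for either class. The part of the libraries' lower exonic share in MN was not tested.

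In WSC RNA-seq, 37 of the 38 genes were found, and *Synj1* was not matched by its symbol. *Hspa8*, the chaperone that takes clathrin coats apart, was highest at 316 ± 108 RPKM (SD, n = 2; 393 in the male and 239 in the female library), followed by the AP-2 subunit *Ap2s1* (154 ± 0.340) and the endophilin *Sh3gl2* (138 ± 1.21). Lowest were *Ston1* (1.07 ± 0.0403), *Snx9* (1.26 ± 0.0223) and *Dab2* (2.04 ± 0.420). The most abundant members of the group described here, *Dnm1*, *Cltc* and *Bin1*, lay between *Hspa8* and *Ap2s1*.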

How the data were processed

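The 10 genes, the list of other pathway genes and the cell type markers were chosen with earlier results of these data known. RNA-seq values were deposited by the authors as read counts per gene, RPKM (reads per kb of exon and 1000000 reads on genes) and read counts per cassette exon. Per the methods, 100-nt paired reads had been trimmed to 74 nt, mapped to mm9 with OLego and counted with Quantas, and CLIP reads had been mapped with Novoalign and collapsed to unique tags with a random barcode. Versions were not given in the sources used here. For replicate 2 of line 6 the labels also name mm10, and its exonic share of 37.5% lay within the range of the other MN libraries. The CLIP files hold the position and strand of each tag. The libraries held 72006019 and 65625173 RNA-seq reads on genes.

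Tags were assigned by strand and midpoint to the genes of the NCBIM37 annotation, leaving out tags in several genes, and counted per gene. All 12747 placed cassette exon entries lay within the chromosomes of this assembly, of which 10972 had all 4 splice sites annotated. Gene counts were tested with edgeR 4.0.16 in R 4.3.3 (TMM, filterByExpr, quasi-likelihood test, Benjamini-Hochberg) over all 12 CLIP libraries with line 6, line 17 and WSC as groups and the mean of both lines against WSC as the contrast. Genes passed at an adjusted p of 0.01, exons at 0.1. DESeq2 1.42.0 was an alternative. Shares around exons were fitted with a term per library. Intervals are 95% Wilson intervals from statsmodels 0.14.6 and cover counting error only. Scripts ran in Python 3.11.15 with pandas 2.3.3 and SciPy 1.17.1. RNA-seq levels were called past 1.5-fold on log2(RPKM + 0.1), among genes averaging 1 RPKM or more. The tests were checked on simulated data. Replicates are separate libraries by their labels, and p-values measure only the spread between these samples. Genes of the pathway were named as the 3 with the largest and the 3 with the lowest difference among those that passed. Others that passed were named for their results by class of tag.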

Additional observations from a re-analysis of the deposited data

Results flagged for a closer look

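In 3 of 30 groups of 4 CLIP libraries (10 genes in line 6, line 17 and WSC), 1 library stood apart from the other 3 by the 95% value of Dixon's test, which chance reaches in about 1 in 20 groups. *Dnm1*, the neuronal dynamin, had 439.2 CPM (scaled tags per 1000000) in replicate 1 of line 17, on 20 tags, against 150.8 to 181.5 in the other replicates (gap over range 0.894). In replicate 1 of line 6 it had 285.4, on 19 tags, against 132.0 to 146.3 (0.907). Both libraries came from the same sequencing instrument, which made no other library, and had the shortest tags, with means of 30.2 and 29.8 nt, and their part in these values was not tested. *Dnm2* had 0 tags in replicate 1 of line 17, the shallowest library, against levels of 49.5 to 54.5 CPM in the others (0.908), on 3 to 31 tags.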

How the results depend on the processing

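The calls for *Dnm1* held under every alternative run, with log2 differences of -1.54 to -1.27 when any 1 library was left out. Those of *Dnm3* held (0.41 to 0.46) except without the filter on low counts. Replicate numbers were not taken to pair the CLIP samples, since not every same-numbered pair had deviations from the group means that correlated above 0.1. Between line 6 and line 17 these correlations were 0.252, 0.191, 0.0849 and 0.385, and between MN and WSC -0.300 to 0.117. As a hint from the data, each line 17 library correlated best with the line 6 library of its own number, but replicate 3 of line 6 with replicate 4 of line 17 (0.287), and both replicates 1 and both replicates 2 shared an instrument. With the replicate number as a block, 2080 genes passed in place of 2566. *Cltb* (-0.75, edgeR, adjusted p = 0.0375), *Bmp2k* (0.73, edgeR, adjusted p = 0.0235) and the *Snap91* 15-nt window (edgeR, adjusted p = 0.109) then did not, and the block changed no other call of a named gene or exon. *Pip5k1c* did not pass with exonic tags (-0.62), *Epn2* with intronic tags (0.31) or for line 6 alone (1.06), and *Bmp2k* without the filter (0.58), with intronic tags (0.27) or for line 17 alone (0.54). With 1 library left out, 1854 to 2898 genes passed, and 1065 with exonic and 745 with intronic tags only, where fewer genes were tested. No line difference was called, but 1 gene was with DESeq2, without the filter and with intronic tags, and 0 to 3 with 1 library left out, 3 without replicate 4 of line 17. Exon windows that passed numbered 309, 54 with intronic tags only and 115 to 300 with 1 library left out (115 without replicate 4 of line 17, 190 without replicate 3 of line 6). Male and female libraries differed past 1.5-fold in 190 genes with a pseudocount of 1 and in 1623 without the filter, against 417. Of the 11 exon entries at 20 to 80%, there were 5 with exon body reads and 7 with summed junctions.

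Signs turned only in differences that had not passed, apart from *Itsn2* (-0.11 with intronic tags). *Cltc* was 0.028 with collapsed tags, 0.61 exonic, 0.24 intronic and 0.034 for line 6 alone. *Picalm* was -0.025 without the filter and -0.091 to 0.25 with 1 library left out. *Snap91* was 0.0079 for line 17 alone. *Amph* was -0.10 without the filter, -0.39 intronic and -0.052 within 1 run, and *Bin1* -0.14, -0.79 and, for line 17 alone, -0.044, with -0.0095 without TMM and -0.013 to 0.14 with 1 library left out. Among exon windows, *Cltb* 54 nt was -0.52 within 1 run and -0.52 to 2.23 with 1 library left out. *Clta* 36 nt and its 41-nt form were -0.049 with the block, -2.35 intronic, -0.35 within 1 run and -0.23 to 0.96. *Picalm* 24 nt was -0.24 intronic and -1.82 to 1.57, *Picalm* 103 nt -2.59 to 0.18, *Cltc* 21 nt -0.57 to 1.94 and *Snap91* 84 nt -1.94 to 1.04. The causes were not tested. These windows hold 2 to 7 MN tags.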
